A study of Rattus norvegicus with 24 samples.

Results

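The genes described here are the fibroblast and extracellular matrix genes of the rat heart: collagens, glycoproteins, small proteoglycans, elastic fibre proteins, collagen and elastin cross-linking enzymes, the 3 TGF-beta ligands and 3 markers of fibroblasts or contractile stromal cells. They were taken from a list of 39 symbols, by matching the accession of every array probe to rat RefSeq transcripts. Of the 39 symbols, 32 had a named probe, 38 probes in all, and all 32 passed the filter on dim probes, out of 12894 genes tested and 15168 genes named. Col4a2, Col5a2, Col6a1, Col6a3, Col15a1, Lox and Fbln2 had no named probe and were not analysed here.

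Myocardial RNA of 24 rats was hybridised to single-colour Agilent arrays, with 2 males and 2 females in each of 6 groups. The sham group had no coronary ligation and no acupuncture is named for it. The IRI group had ischaemia-reperfusion injury, by ligature of the LAD coronary artery, the main vessel of the front wall, without pretreatment. The Jiaji, Neiguan, Yanglingquan and Quchi groups were each needled at the acupoint of that name over 7 days and then given the same injury. The labels used here name no strain, age, length of reperfusion or time of sampling, and nothing in them says which region of the heart was taken. Each array was taken as 1 rat. No group needled away from these acupoints is among the samples, so needling as such and the acupoint cannot be told apart. The labels do not say how the animals were housed or operated on in relation to each other, and p-values therefore reflect only how much these 24 samples vary.

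Cardiac fibroblasts lay down and turn over the matrix that holds the muscle fibres together. Fibrillar collagens give the wall its tensile strength, basement membrane collagens sheathe the muscle cells and capillaries, and elastic fibres give recoil. After an infarct, fibroblasts become activated under TGF-beta and mechanical load, raise matricellular proteins early and collagens later, and cross-linking enzymes then stiffen the scar.

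Levels are log2 processed signals relative to the 75th percentile of the probes of the same array, so 0 marks that percentile, and a level of 1 probe cannot be set against that of another. Differences are on the same log2 scale, from 1 limma fit over all 24 arrays with group and sex as terms. A gene is called when its Benjamini-Hochberg adjusted p over the 12894 genes was under 0.05. Of the 32 genes, 30 were well above background on all 24 arrays. Fbln1 was well above background on 3 of 4 Quchi arrays and on all arrays of the other groups. Tnc was well above background on 4 sham, 2 IRI and 2 Neiguan arrays and on 0 arrays of the other 3 groups. The heart muscle label held in the markers: 11 of 11 tested cardiomyocyte genes were well above background on all 24 arrays.

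Between 71.1% and 88.7% of probes were well above background per array, and the share averaged 73.3 ± 2.61% (SD, n = 4) in Yanglingquan against 80 to 84.7% in the other groups. The arrays of each group held slide positions 1 to 4 and shared a scan run, apart from Quchi replicate 1, which was scanned in a run of its own. Each group was therefore taken as 1 slide, which is read from position and scan run. Slide and group cannot be told apart in any comparison of groups. The IRI and sham arrays were scanned on 1 day, the acupoint groups on another day and Quchi replicate 1 on a day of its own. IRI against sham thus lies within a scan day, while scan day and needling cannot be told apart in the comparisons of acupoint groups with IRI or sham. Each group held both sexes, so the comparison of females with males does not carry that limit. In RNA of whole tissue, fewer cells of a type and less RNA per cell cannot be told apart.

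Promoters are shown for Ccn2 and Thbs1, the matrix genes called as higher than sham in at least 1 acupoint group, and for Ccn1, the close relative of Ccn2. RefSeq promoter entries were matched by symbol for 22 of the 32 genes (build GRCr8), and the 250 bases before each start are printed 5′ to 3′ on the strand of the gene. Capitals mark CATTCC on either strand (read as GGAATG on the other), the core motif bound by TEAD factors, which are the DNA-binding partners of the mechanically regulated co-activator YAP, and TATAAA, the TATA box.
Ccn2, chr1:22624615-22624864, minus strand: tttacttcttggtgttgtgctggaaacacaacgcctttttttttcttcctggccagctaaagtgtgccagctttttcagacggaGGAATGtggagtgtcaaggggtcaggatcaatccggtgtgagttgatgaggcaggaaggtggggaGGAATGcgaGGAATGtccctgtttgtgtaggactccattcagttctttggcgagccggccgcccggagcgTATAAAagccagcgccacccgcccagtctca
Ccn1, chr2:237225690-237225939, minus strand: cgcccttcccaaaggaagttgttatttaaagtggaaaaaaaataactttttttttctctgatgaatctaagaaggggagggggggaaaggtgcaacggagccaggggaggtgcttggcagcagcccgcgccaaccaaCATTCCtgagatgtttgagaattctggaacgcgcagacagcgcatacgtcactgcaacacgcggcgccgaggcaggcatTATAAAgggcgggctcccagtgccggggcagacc
Thbs1, chr3:125510000-125510249, plus strand: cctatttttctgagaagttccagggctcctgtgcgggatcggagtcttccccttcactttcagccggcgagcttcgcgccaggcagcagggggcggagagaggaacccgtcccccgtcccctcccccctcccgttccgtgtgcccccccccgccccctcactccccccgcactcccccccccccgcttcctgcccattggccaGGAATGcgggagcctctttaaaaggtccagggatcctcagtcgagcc
Ccn2 had CATTCC in 3 places, at 166, 101 and 92 bases before the start, all on the strand opposite to the gene, and a TATA box at 31 bases. Ccn1 had 1 copy at 113 bases and a TATA box at 34 bases. Thbs1 had 1 copy at 47 bases, on the opposite strand. CATTCC occurred in the promoters of 6 of the 22 genes (Ccn1, Ccn2, Thbs1, Sparc, Loxl1 and Acta2), and in 12.1% of 33469 rat promoters of the same length. Of these 6, Loxl1 and Sparc were called as lower in a comparison with sham and Acta2 and Ccn1 were not called, so the letters occurred in genes of either direction. TATAAA occurred in 6 of the 22 (12.9% of all promoters), CCAAT in 7 of the 22 (34% of all promoters) and a CArG box in 0 of the 22 (1.5% of all promoters), each searched on both strands, and CCAAT can share its first 2 letters with the end of CATTCC. A match is a description of the sequence.

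The question of whether injury alone changed the matrix genes was addressed by IRI against sham. No matrix gene was called in either direction, 0 of 32, where limma called 5.76% of all genes tested, 4.73% as higher and 1.03% as lower. At an unadjusted limma p under 0.05, 2 of the 32 passed, against 17.8% of all genes. These were Thbs1, which encodes the matricellular protein thrombospondin 1 that activates latent TGF-beta (0.76 ± 0.32 (SE), limma adjusted p = 0.201), and Pdgfra, the PDGF receptor that marks resident fibroblasts (-0.54 ± 0.25, limma adjusted p = 0.255). The median difference of the 32 genes was -0.017, against -0.034 over all genes, and for 25 of the 32 the 95% confidence interval lay within 1 log2 unit of 0. Col1a1, the main chain of type I collagen, lay at 3.45, 3.49, 2.78 and 3.23 in sham replicates 1 to 4 and at 3.28, 2.77, 2.49 and 4.32 in IRI, with a difference of -0.024 (95% interval -0.61 to 0.56). Ccn2, the connective tissue growth factor gene, lay at 1.95, 1.73, 2.17 and 1.98 in sham and 2.42, 2.66, 3.11 and 2.41 in IRI, without overlap. Its difference of 0.69 had a 95% interval of -0.017 to 1.4 and a limma adjusted p of 0.288.

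Set against IRI, the acupoint groups held few called matrix genes, all lower. Jiaji had 0 higher and 2 lower, where 10.2% of all genes were called, 8.39% as higher and 1.8% as lower, and 9 of the 32 had an unadjusted limma p under 0.05 (23.5% of all genes). Yanglingquan had 0 higher and 1 lower, where 12.1% of all genes were called, 4.09% as higher and 8.03% as lower, and 7 of the 32 had an unadjusted limma p under 0.05 (26.3% of all genes). Neiguan had 0 of 32 called, where 5.64% of all genes were (4.41% as higher, 1.23% as lower), with 3 of the 32 at an unadjusted limma p under 0.05 (19.7% of all genes). Quchi likewise had 0 of 32 called, where 3.44% of all genes were (2.39% as higher, 1.05% as lower), with 3 of the 32 at an unadjusted limma p under 0.05 (19% of all genes). The median difference of the 32 genes was -0.28 in Jiaji, -0.22 in Neiguan, -0.14 in Yanglingquan and 0.0098 in Quchi, against -0.015, -0.052, -0.038 and 0.02 over all genes. Of the 32, 26 had a negative difference in Jiaji and 21 each in Neiguan and Yanglingquan. Under quantile, median and normexp scaling and in the authors' processed values the 3 negative medians kept their sign, and that of Quchi was negative in each.

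Set against sham, Jiaji had 1 higher and 4 lower, where 24% of all genes were called, 17.5% as higher and 6.55% as lower. Neiguan had 1 higher and 2 lower, where 19.9% of all genes were called, 12.5% as higher and 7.39% as lower. Quchi likewise had 1 higher and 2 lower, where 21.1% were called, 11.8% as higher and 9.26% as lower. Yanglingquan had 0 higher and 1 lower, where 13% of all genes were called, 5.81% as higher and 7.22% as lower. At an unadjusted limma p under 0.05 stood 11 of the 32 in Jiaji (37.4% of all genes), 6 in Neiguan (35.4%), 6 in Yanglingquan (28.7%) and 7 in Quchi (35.4%). In each of the 4 comparisons with sham, the share of the 32 genes called lay below that of all genes. The comparisons of the acupoint groups share the IRI or the sham arrays with each other, so their values stand side by side and are not independent. By the probe used for each gene, 10 of the 32 were called in at least 1 comparison of groups and 22 in none. Among the 22, second probes of Bgn, Tgfb2 and Fn1 were called in some comparisons. The share of all genes called in at least 1 comparison is not given here, so this count cannot be read as many or few.

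**Figure D1:**
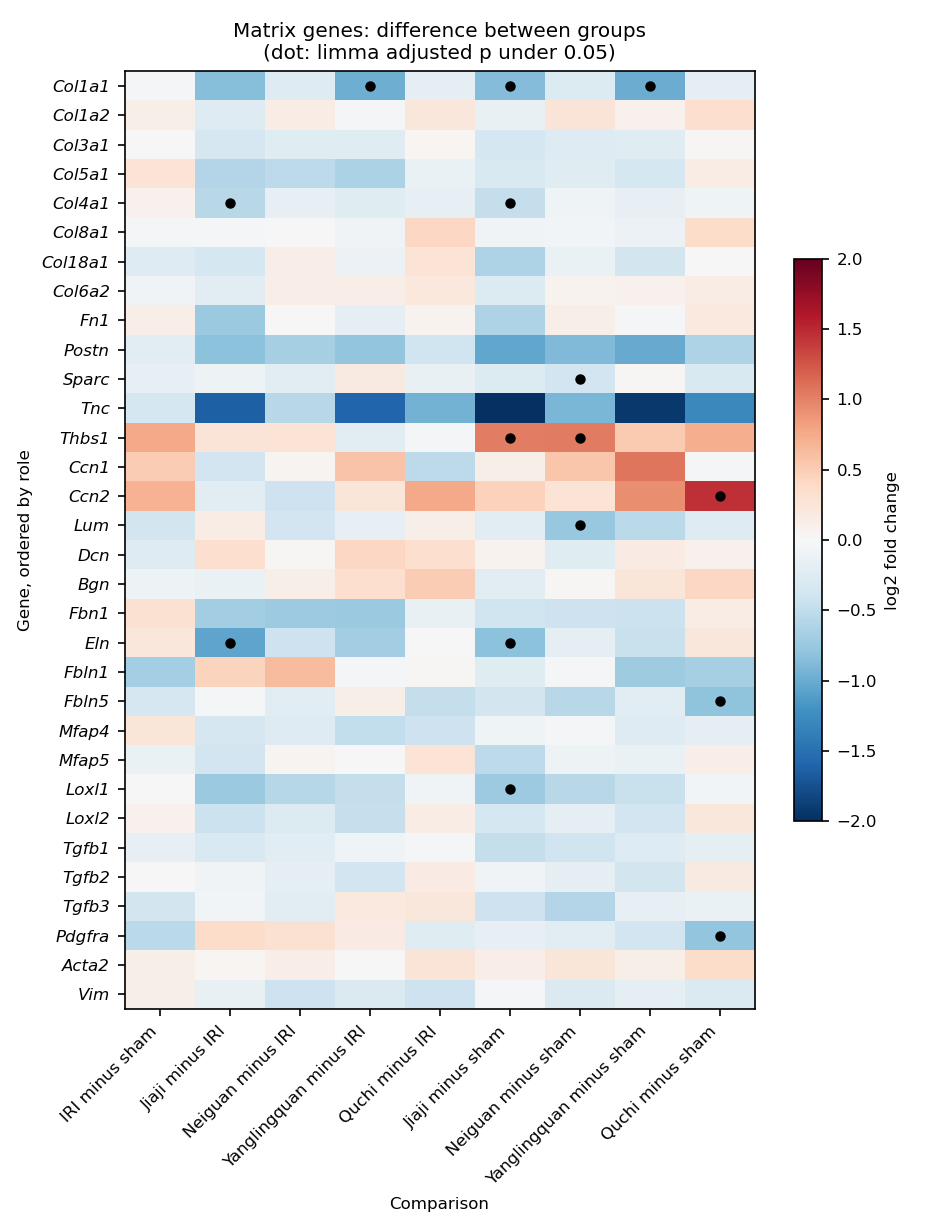
Log2 difference of each of the 32 matrix genes (rows, ordered by role) in 9 comparisons of groups (columns), from blue (lower) to red (higher), with a dot where the limma adjusted p was under 0.05. The dots sit on 10 genes, the IRI minus sham column holds none, and the Tnc row rests on arrays where it was not well above background.

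Among fibrillar collagens, Col1a1 was lower in 3 comparisons, and Col1a2, Col3a1 and Col5a1 were called in none. Col1a1 lay at 2.25, 1.83, 1.99 and 3.41 in Jiaji replicates 1 to 4, at 3.26, 2.59, 3.04 and 2.93 in Neiguan, at 2.79, 2.83, 1.39 and 1.96 in Yanglingquan and at 3.92, 3.86, 1.9 and 2.47 in Quchi. Yanglingquan and Jiaji were the lowest groups on average, and each had arrays within the range of sham and IRI. The difference of Yanglingquan from IRI was -0.97 ± 0.28 (SE, limma adjusted p = 0.0271) and from sham -1 ± 0.28 (limma adjusted p = 0.0238). Jiaji differed from sham by -0.87 ± 0.28 (limma adjusted p = 0.0276) and from IRI by -0.85, which was not called. Col1a2, the second chain of the same collagen molecule, differed by -0.027 in Yanglingquan and -0.26 in Jiaji against IRI. Col3a1, the collagen of thin reticular fibres, lay at 4.89, 5.32, 4.6 and 5.04 in sham, 4.9, 4.96, 4.4 and 5.55 in IRI, 4.91, 4.24, 4.15 and 5.12 in Jiaji, 4.89, 4.5, 4.81 and 4.6 in Neiguan, 5.39, 4.96, 4.01 and 4.5 in Yanglingquan and 5.47, 5.66, 4.31 and 4.52 in Quchi. Its groups overlapped, and its largest difference from IRI or sham was -0.35, in Jiaji against sham. Col5a1, which seeds fibril assembly, differed from IRI by -0.59 in Jiaji, -0.53 in Neiguan and -0.64 in Yanglingquan without being called.

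Each group call of Col1a1 was lost in some alternative fits. All were lost without the sex term and with the mean of the gene's probes. The call of Yanglingquan against IRI was lost under median scaling too. It was also lost without IRI replicate 2, IRI replicate 4 or Yanglingquan replicate 3 (limma adjusted p 0.0562 to 0.105). Against sham it was lost in Yanglingquan without sham replicate 3, sham replicate 4 or Yanglingquan replicate 3 (0.0526 to 0.0772), and in Jiaji without sham replicate 3, sham replicate 4, Jiaji replicate 1 or Jiaji replicate 2 (0.0528 to 0.11). A second Col1a1 probe gave -0.26 for Yanglingquan against IRI, -0.13 for Yanglingquan against sham and 0.094 for Jiaji against sham, none of them called.

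Of the basement membrane and network collagens, Col4a1 was lower in Jiaji, and Col8a1 and Col18a1 were called nowhere. Col4a1, a chain of the type IV collagen that underlies muscle cells and capillaries, lay at 4.79, 4.5, 4.33 and 4.52 in sham, 4.55, 4.4, 4.34 and 5.17 in IRI and 3.82, 3.73, 3.92 and 4.74 in Jiaji. Jiaji replicates 1 to 3 lay below every sham and IRI array and replicate 4 lay within their range. The difference was -0.56 ± 0.17 (SE) from IRI (limma adjusted p = 0.0426) and -0.48 ± 0.17 from sham (limma adjusted p = 0.0481). In Neiguan it lay at 4.5, 4.31, 4.68 and 4.31, in Yanglingquan at 4.53, 4.62, 3.93 and 4.38 and in Quchi at 4.54, 4.66, 4.01 and 4.55, all overlapping IRI. These calls are near the threshold: that against IRI was lost in 11 of the 24 fits without 1 array (limma adjusted p 0.0509 to 0.165), namely IRI replicates 2, 3 and 4, Jiaji replicates 1, 2 and 3, Neiguan replicates 2, 3 and 4, sham replicate 3 and Quchi replicate 2, and that against sham in 16 of 24 (0.0513 to 0.174), namely IRI replicates 2 and 3, sham replicates 1, 3 and 4, Jiaji replicates 1, 2 and 3, every Neiguan replicate, Yanglingquan replicates 1 and 2 and Quchi replicates 1 and 2. The other Col4a1 probe gave -0.071 for Jiaji against IRI and 0.062 for Jiaji against sham. Col18a1, the source of endostatin, differed by -0.61 in Jiaji against sham, and Col8a1, a network collagen of vessel walls, by 0.42 in Quchi against IRI, neither called. Of the beaded filament collagens only Col6a2 was measured, and its differences ran from -0.27 to 0.21.

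Of 6 elastic fibre genes, Eln was lower in Jiaji, Fbln5 was lower in Quchi, and 4 were called nowhere. Eln, which encodes elastin itself, lay at 3.28, 3.09, 2.69 and 2.84 in sham, 2.88, 3.28, 2.52 and 4.16 in IRI and 2.12, 1.7, 1.95 and 2.86 in Jiaji. Jiaji replicates 1 to 3 lay below every sham and IRI array, and replicate 4 lay within both groups. The difference was -1.05 ± 0.27 (SE) from IRI (limma adjusted p = 0.0145) and -0.82 ± 0.27 from sham (limma adjusted p = 0.0314). Elastin lay at 3.04, 2.57, 3.06 and 2.5 in Neiguan, 2.41, 2.52, 2.25 and 2.91 in Yanglingquan and 3.86, 3.83, 2.35 and 2.79 in Quchi. The call against IRI was lost without IRI replicate 2, IRI replicate 4 or Jiaji replicate 1 (limma adjusted p 0.0555 to 0.063), and that against sham without sham replicate 1, 3 or 4 or Jiaji replicate 1, 2 or 3 (0.0524 to 0.0962). A second Eln probe gave 0.12 for Jiaji against IRI and 0.38 for Jiaji against sham, so the probes had opposite signs in Jiaji. In Yanglingquan they had the same sign: against IRI the second probe gave -0.82 (limma adjusted p = 0.0064) and the main probe -0.69 (limma adjusted p = 0.104), and against sham -0.56 and -0.45, neither called.

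Fbln5, a fibulin that tethers elastin to microfibrils, was lower in Quchi than in sham. It lay at -3.51, -2.45, -2.85 and -3.16 in sham and at -3.9, -3.87, -3.79 and -3.67 in Quchi, without overlap, and the difference was -0.81 ± 0.23 (SE, limma adjusted p = 0.0158). Without sham replicate 2 it was -0.61 and not called (limma adjusted p = 0.0712). Its levels were -3.64, -3.44, -3.23 and -3.03 in IRI, -2.86, -3.85, -3.19 and -3.55 in Jiaji, -3.37, -3.49, -3.59 and -3.75 in Neiguan and -3.36, -3.66, -2.71 and -3.12 in Yanglingquan, and the Quchi difference from IRI of -0.47 was not called, although these arrays did not overlap either. The other elastic fibre genes, Fbn1, Fbln1, Mfap4 and Mfap5, which build or bind microfibrils, were called nowhere, with differences from -0.74 (Fbn1, Yanglingquan against IRI) to 0.64 (Fbln1, Neiguan against IRI).

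Of the cross-linking enzymes, Loxl1, the lysyl oxidase relative that cross-links elastin, was lower in Jiaji than in sham. It lay at -2.11, -1.39, -1.62 and -2.01 in sham and -2.28, -3.2, -2.34 and -2.23 in Jiaji, without overlap, a difference of -0.73 ± 0.24 (SE, limma adjusted p = 0.0296). The call was lost without sham replicate 2, sham replicate 3 or Jiaji replicate 2 (limma adjusted p 0.0861 to 0.113). In IRI it lay at -1.72, -2.14, -1.97 and -1.25, in Neiguan at -2.49, -2.21, -2.7 and -1.98, in Yanglingquan at -2.45, -2.5, -2.18 and -1.81 and in Quchi at -1.73, -1.61, -2 and -2.01. The Jiaji arrays also lay below the IRI arrays without overlap (-0.74), which was not called. Loxl2, which cross-links basement membrane collagen, was called in no comparison of 2 groups, with differences from -0.46 to 0.23.

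Glycoproteins and matricellular proteins held the genes that were higher. Ccn2, an early target of TGF-beta and of mechanical stretch, was higher in Quchi than in sham. It lay at 1.95, 1.73, 2.17 and 1.98 in sham and 3.76, 3.92, 3.22 and 2.75 in Quchi, every Quchi array above every sham array, and the difference was 1.46 ± 0.34 (SE, limma adjusted p = 0.00468). It kept the call in all 34 alternative fits, between 1.21 and 1.76. Its levels were 2.42, 2.66, 3.11 and 2.41 in IRI, 1.87, 2.68, 3 and 2.15 in Jiaji, 2.21, 2.2, 2.27 and 2.28 in Neiguan and 1.72, 2.34, 4.06 and 3.43 in Yanglingquan. The 4 Neiguan arrays lay between 2.2 and 2.28, above every sham array and below every IRI array, while Yanglingquan held both the lowest and the highest of the 24 levels. The Quchi difference from IRI, 0.76, was not called and the arrays overlapped.

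Thbs1 was higher than sham in Jiaji and in Neiguan. It lay at -5.01, -4.88, -5.11 and -4.55 in sham, -3.18, -4.94, -3.73 and -3.62 in Jiaji and -3.51, -4.33, -3.97 and -3.6 in Neiguan. Jiaji replicate 2 lay within the sham range and the other Jiaji arrays and all Neiguan arrays lay above it. The differences were 1.02 ± 0.32 (SE, limma adjusted p = 0.0241) in Jiaji and 1.04 ± 0.32 (limma adjusted p = 0.0267) in Neiguan. The IRI arrays, at -4.37, -4.61, -3.85 and -3.7, overlapped both, as did Yanglingquan (-4.67, -3.88, -4.06 and -4.82) and Quchi (-4.71, -4.28, -3.94 and -3.71). In Jiaji the call was lost without sham replicate 1 or 3 or Jiaji replicate 1, 3 or 4 (limma adjusted p 0.0598 to 0.0959), and in Neiguan without sham replicate 1, 2 or 3 or Neiguan replicate 1 or 4 (0.06 to 0.087). With normexp background correction the differences were 0.31 and 0.37 and neither was called. The Jiaji call was also lost under quantile scaling and in the authors' processed values.

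Sparc, a collagen-binding protein made by fibroblasts and endothelium, was lower in Neiguan than in sham, at 4.88, 4.5, 4.77 and 4.61 against 5.08, 5.26, 4.77 and 5.19, and the groups overlapped. The difference was -0.39 ± 0.14 (SE, limma adjusted p = 0.0495). It was lost in 17 of the 24 fits without 1 array (limma adjusted p 0.0504 to 0.14), namely without IRI replicate 1 or 2, sham replicate 1, 2 or 4, Jiaji replicate 2 or 3, any Neiguan or Yanglingquan replicate, or Quchi replicate 2 or 3. Its levels were 4.82, 4.84, 4.55 and 5.43 in IRI, 4.86, 4.66, 4.6 and 5.11 in Jiaji, 5.12, 5.06, 5.04 and 5.14 in Yanglingquan and 4.69, 4.83, 4.69 and 4.85 in Quchi.

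The other genes of that role were called nowhere. Fn1, fibronectin, the provisional scaffold of wounds, lay at 2.84, 2.19, 2.28 and 1.71 in sham, 2.89, 2.12, 2.36 and 2.16 in IRI, 1.02, 1.89, 1.75 and 1.91 in Jiaji, 1.94, 2.67, 1.9 and 2.97 in Neiguan, 2.08, 2.52, 1.84 and 2.39 in Yanglingquan and 2.88, 2.7, 2.22 and 2.02 in Quchi. All Jiaji arrays of Fn1 lay below all IRI arrays (-0.74, not called), and the other groups overlapped IRI. A second Fn1 probe gave -0.17 for that comparison and was lower in Yanglingquan than in IRI (-1.08, limma adjusted p = 0.00592), where the main probe gave -0.18. Postn, periostin, the standard marker of activated fibroblasts, lay at -0.045, 0.59, 0.095 and -0.47 in sham, 1.02, -0.52, -0.14 and -1.06 in IRI, -1.22, -1.11, -1.08 and -0.59 in Jiaji, -2.34, 0.54, -1.75 and 0.21 in Neiguan, -0.42, -0.97, -1.33 and -1.14 in Yanglingquan and -0.61, -0.56, -0.45 and -0.67 in Quchi. The Jiaji arrays of Postn lay below the sham arrays without overlap (-1.04, not called), and the Neiguan arrays split widely, with a residual SD over all arrays of 0.75 log2, against a median of 0.25 over all genes. Ccn1, the other early matricellular gene of the Ccn family, differed from sham by 1.07 in Yanglingquan and by -0.021 in Quchi, neither called. Tnc, tenascin C, a matricellular protein of injury borders, was not well above background in Jiaji, Yanglingquan and Quchi. The floor of an array was taken as its lowest level well above background, or the Tnc value where higher. The sham mean lay 1.34-fold above the Jiaji floor and 1.2-fold above the Quchi floor. The Yanglingquan floor (-5.76) lay above the sham mean (-5.84). The IRI mean, with 2 arrays well above background, lay 1.05-fold above the Jiaji floor. These ratios are approximate, because the level at which Tnc itself would be flagged is not known. The measured differences were not called (limma adjusted p = 0.0502 for Jiaji and 0.209 for Quchi against sham, and 0.17 for Jiaji against IRI).

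Among the small proteoglycans, which bind collagen fibrils and set their width, Lum was lower in Neiguan than in sham. It lay at -1.42, -0.42, -0.81 and -0.92 in sham and -1.45, -1.64, -1.78 and -1.74 in Neiguan, without overlap by a narrow margin, a difference of -0.76 ± 0.25 (SE, limma adjusted p = 0.0362). The call was lost without sham replicate 2, 3 or 4 or any 1 Neiguan replicate (limma adjusted p 0.0512 to 0.133). Lumican lay at -1.75, -0.92, -1.56 and -0.82 in IRI, -0.61, -1.05, -1.26 and -1.53 in Jiaji, -1.34, -1.85, -1.15 and -1.39 in Yanglingquan and -1.14, -0.84, -0.96 and -1.66 in Quchi. Dcn and Bgn, decorin and biglycan, were called in no comparison of 2 groups, with differences of up to 0.42 for Dcn and 0.51 for Bgn. A second Bgn probe was higher in Jiaji than in IRI (0.49, limma adjusted p = 0.00735) and sham (0.77, limma adjusted p = 4.71e-05), and in Neiguan than in IRI (0.39, limma adjusted p = 0.0474) and sham (0.67, limma adjusted p = 0.000273), where the main probe gave -0.14, -0.23, 0.12 and 0.02.

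The TGF-beta ligands were called nowhere. Tgfb1, the main profibrotic isoform, lay at -4.78, -4.14, -4.82 and -4.54 in sham, -4.64, -5.02, -4.56 and -4.75 in IRI, -4.84, -5.48, -5.17 and -4.7 in Jiaji, -5.04, -4.61, -4.99 and -5.24 in Neiguan, -4.87, -5.19, -4.91 and -4.36 in Yanglingquan and -4.87, -4.9, -4.76 and -4.52 in Quchi, and its largest difference from IRI or sham was -0.48, in Jiaji against sham. Tgfb2 differed by -0.38 to 0.18 and Tgfb3 by -0.59 to 0.23. A second Tgfb2 probe was called as higher than IRI in Jiaji (0.93, limma adjusted p = 0.00101), Neiguan (0.63, limma adjusted p = 0.0319) and Quchi (0.92, limma adjusted p = 0.00428), where the main probe gave -0.071, -0.18 and 0.17. It was also higher than sham in Jiaji (0.64, limma adjusted p = 0.0102) and Quchi (0.62, limma adjusted p = 0.0142).

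Of the cell markers, Pdgfra was lower in Quchi than in sham. It lay at 1.2, 1.95, 1.68 and 1.96 in sham and 1.12, 0.72, 0.89 and 0.92 in Quchi, without overlap, a difference of -0.79 ± 0.25 (SE, limma adjusted p = 0.0287). The call was lost without sham replicate 2, 3 or 4 or Quchi replicate 2 (limma adjusted p 0.0649 to 0.0966). Its levels were 0.35, 1.36, 1.19 and 1.76 in IRI, 1.56, 1.57, 1.37 and 1.61 in Jiaji, 1.78, 0.77, 1.68 and 1.66 in Neiguan and 1.56, 1.44, 1.08 and 1.2 in Yanglingquan. Acta2, the smooth muscle actin of vessel walls and myofibroblasts, lay at 3.11, 2.79, 2.8 and 2.91 in sham, 3.06, 2.75, 2.82 and 3.39 in IRI, 3.03, 2.78, 3.12 and 3.23 in Jiaji, 3.2, 3.01, 3.09 and 3.24 in Neiguan, 3.25, 3.35, 2.65 and 2.84 in Yanglingquan and 3.16, 3.36, 3.06 and 3.5 in Quchi, and was called nowhere. Vim, the intermediate filament of stromal cells, was called nowhere and differed by -0.41 to 0.11.

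**Figure D2:**
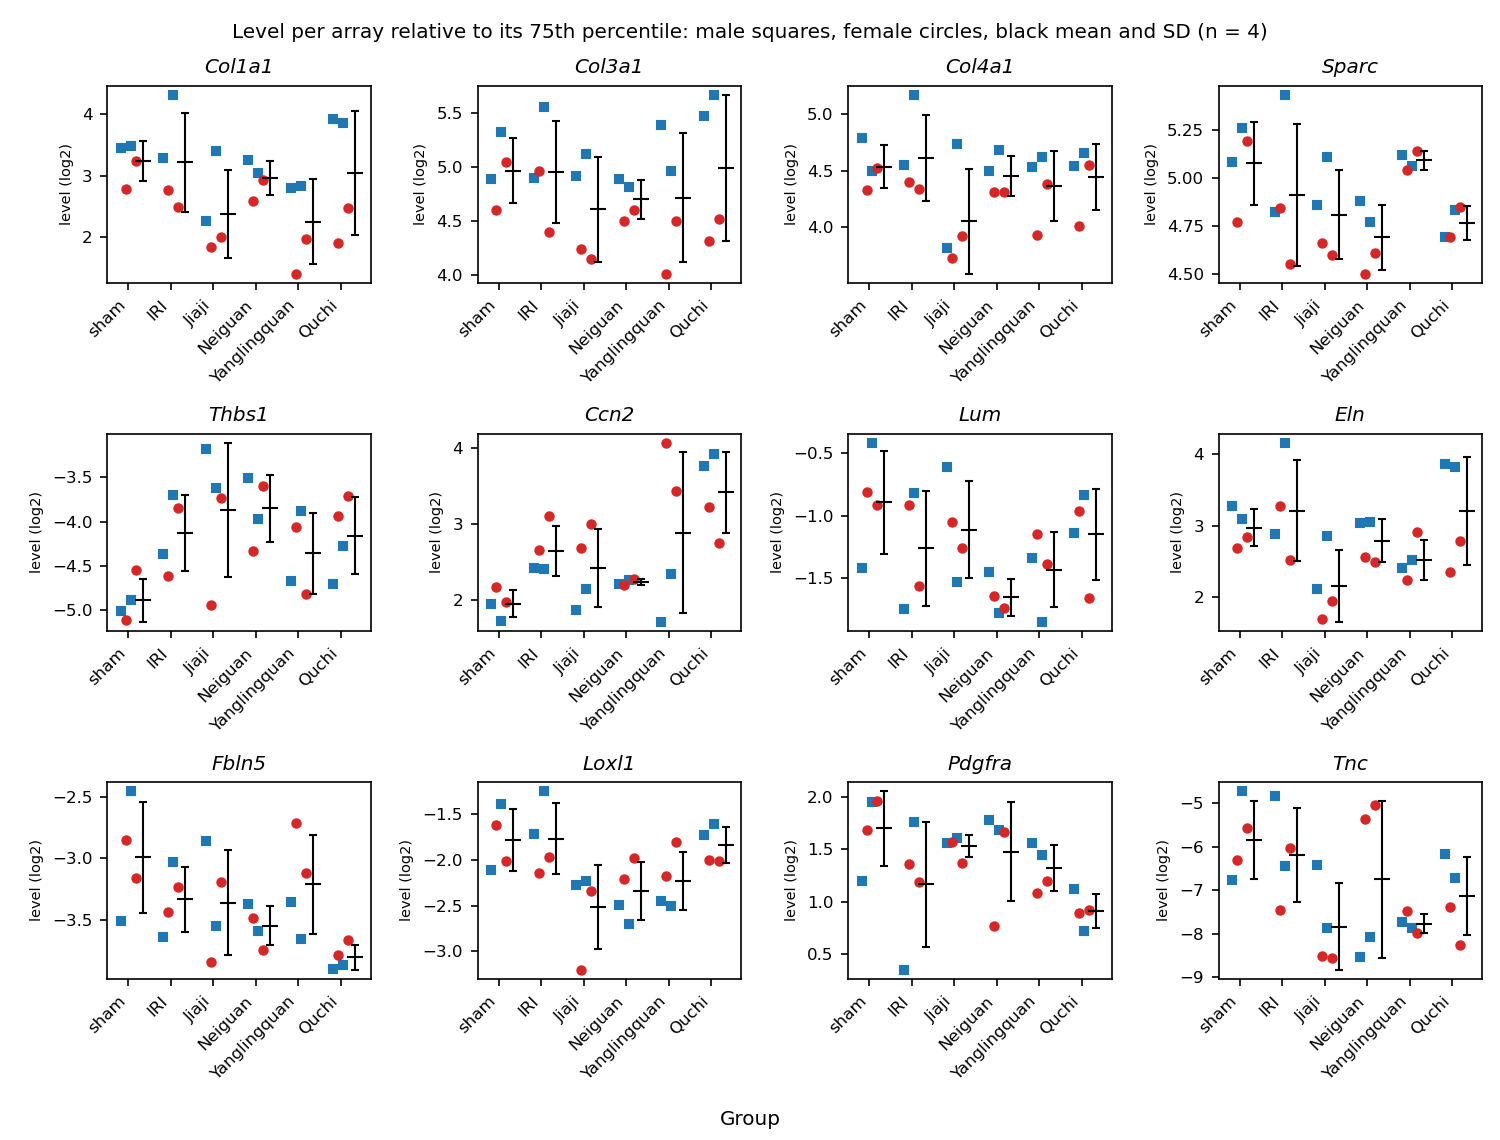
Level of 12 matrix genes on each array (vertical axis, log2 relative to the array's 75th percentile) by group (horizontal axis), with males as blue squares, females as red circles and the mean and SD of 4 arrays in black. Quchi stands above sham for Ccn2, and for Col1a1 both females lie below both males in every group.

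A moderated F test over the 4 acupoint groups called 5 of the 32 genes, Col1a1 (limma adjusted p = 0.0475), Bgn (0.0267), Eln (0.0231), Loxl2 (0.0241) and Ccn2 (0.0317), where it called 39% of all genes. Biglycan lay at 3.49, 3.53, 3.81 and 4.11 in Jiaji, 4.01, 3.62, 4.11 and 4.21 in Neiguan, 4.3, 4.3, 3.82 and 4.41 in Yanglingquan and 4.66, 4.66, 4.14 and 4.08 in Quchi. Loxl2 lay at -0.67, -1.13, -1.07 and -0.58 in Jiaji, -0.46, -0.76, -0.97 and -0.65 in Neiguan, -0.6, -0.85, -1.14 and -0.95 in Yanglingquan and 0.12, 0.37, -0.76 and -0.84 in Quchi. By the probe used for each gene, Quchi had the highest mean of the acupoint groups for all 5. The male means were highest in Quchi for all 5, but the female means were not. In females Col1a1 was 2.18 in Quchi and 2.76 in Neiguan, and Loxl2 -0.8 and -0.71. Female Ccn2 was 2.99 in Quchi and 3.74 in Yanglingquan, Eln 2.57 and 2.58, and Bgn 4.11 in both. Second probes did not all keep that order. Against sham, the second Bgn probe gave 0.77 in Jiaji, 0.67 in Neiguan, 0.34 in Yanglingquan and 0.24 in Quchi. The second Eln probe gave 0.38 in Jiaji and 0.2 in Quchi. The second Col1a1 probe was highest in Quchi (0.3). Without Quchi replicate 1, which leaves arrays of 1 scan day in the acupoint groups, the F test called 0 of the 32, and likewise without Quchi replicate 2 (0 called). These replicates are the Quchi males. It called 1 without Jiaji replicate 1, 2 without Jiaji replicate 2 and 3 without Neiguan replicate 4. The range over all fits without 1 array, given at the end, also reaches above 5. The share of all genes called in these fits is not given here, so a general loss of calls cannot be told apart.

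Col1a1 and Col3a1 were lower in females than in males. Each group held 2 females and 2 males, and the sex term called 0 genes of the 32 as higher and 2 as lower in females, where it called 0.209% of all genes, 0.0465% as higher and 0.163% as lower. Col1a1 ran from 1.39 to 3.23 (median 2.48) in the 12 females and from 2.25 to 4.32 (median 3.34) in the 12 males. The difference was -0.96 ± 0.16 (SE, limma adjusted p = 0.0109). Both females lay below both males in all 6 groups, which held for 5 of 12663 genes (0.0395%), Atp2b2, C1qtnf6, Col1a1, Sapcd2 and Tbc1d20. By group the difference was -0.46 in sham, -1.17 in IRI, -0.92 in Jiaji, -0.39 in Neiguan, -1.13 in Yanglingquan and -1.7 in Quchi. Col3a1 ran from 4.01 to 5.04 (median 4.5) in females and from 4.81 to 5.66 (median 5.04) in males, a difference of -0.67 ± 0.12 (SE, limma adjusted p = 0.0109), with lower females on average in 6 of 6 groups and no overlap in 4 of them. With the replicate number as a block, which is also the position on the slide and is 1 sex in every group for replicate 1, Col1a1 kept its call (-1.06, limma adjusted p = 0.0247) and Col3a1 lost it (-0.67, limma adjusted p = 0.0748).

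The second Col1a1 probe bore on the sex difference too. Its female mean lay below its male mean in 6 of 6 groups, with no overlap in 4, and its difference was -0.43 (limma adjusted p = 0.0564). The 2 probes followed each other over the arrays, r = 0.84 after removal of group and sex means, although their group differences had the same sign in only 3 of 9 comparisons. Further matrix genes were lower in females on average in all 6 groups without being called: Col1a2 (-0.53), Col4a1 (-0.37), Col6a2 (-0.33) and Mfap5 (-0.53). Of the 32 genes, 25 had a negative female minus male difference and 13 an unadjusted limma p under 0.05, against 12.5% of all genes. The median difference was -0.15 over the 32 genes and -0.0013 over all genes. Beside these, 4 of 4 tested red cell genes had a negative difference (-0.61 to -0.45), and 7 of 11 fibroblast markers had an unadjusted limma p under 0.05, of which 6 of the 11 are matrix genes named here. Their part in the result was not tested. The fit in question has 2 animals of each sex in a group, and the labels name no age or cycle stage.

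**Figure D3:**
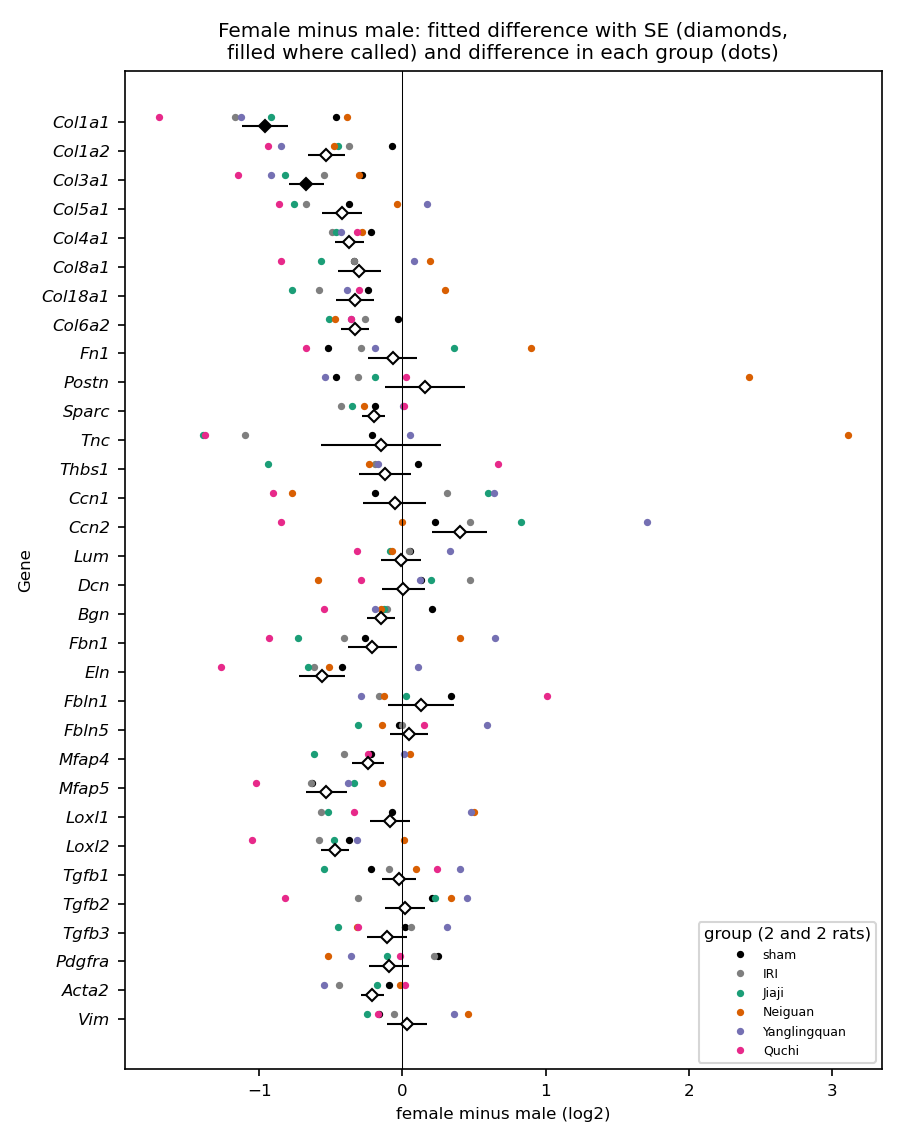
Female minus male difference (horizontal axis, log2) of each matrix gene (vertical axis), with the fitted value and its SE as a diamond, filled where the limma adjusted p was under 0.05, and the difference within each group of 2 females and 2 males as a coloured dot. Col1a1 and Col3a1 have filled diamonds and all 6 dots to the left of 0.

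Whether the sexes differed in their response to injury was tested as an interaction in a fit with a mean for each group and sex. Limma called 0 of the 32 genes, with 0 of the 32 at an unadjusted p under 0.05 (4.9% of all genes), and it called 0% of all genes. An F test of all group-by-sex terms, chosen after the values were seen, also called 0 of the 32 and 0% of all genes, with 8 of the 32 at an unadjusted p under 0.05 against 9.69% of all genes. Ccn2 had the smallest p among the 32 (7.13e-05, limma adjusted p = 0.1). In Yanglingquan its females lay at 4.06 and 3.43 and its males at 1.72 and 2.34, while in Quchi its females lay at 3.22 and 2.75 and its males at 3.76 and 3.92. Tnc and Postn were next in order (limma adjusted p = 0.257 and 0.309), and in Neiguan the females of both lay above the males, for Postn at 0.54 and 0.21 against -2.34 and -1.75.

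How the matrix genes varied together from rat to rat was read from the 24 arrays after removal of group and sex means, over 496 pairs. The members' residual SD had a median of 0.35 log2, against 0.25 over all genes, and the median r over the pairs was 0.2. Pairs of r at least 0.8 numbered 8 (1.61%), and 1 pair (0.202%) lay at or below -0.8. Over all pairs of 12663 genes the median r was 0.014, with 0.411% at or above 0.8 and 0.203% at or below -0.8. The permutation p of a pair is unadjusted here, the smallest that 1e+05 permutations can give being 1e-05, and it treats the 24 residuals as exchangeable.

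Type I and III collagen chains varied together. Col1a1 and Col1a2 had a Pearson r of 0.85 and a Spearman rho of 0.85 (permutation p = 1e-05 for both, the smallest they can give), and r was 0.83 without the 2 arrays farthest from the median of Col1a1. Col1a2 and Col3a1 had an r of 0.84 (rho 0.81, permutation p = 1e-05 for both, r = 0.78 without 2 arrays), and Col1a2 and Bgn 0.83 (rho 0.84, permutation p = 1e-05 for both, r = 0.8 without 2 arrays). Lum and Tgfb3 had an r of 0.86 (rho 0.84, permutation p = 1e-05 for both, r = 0.84 without 2 arrays). Dcn and Col18a1 ran opposite to each other, with r = -0.85 and rho = -0.81 (permutation p = 1e-05 and 2e-05, r = -0.8 without 2 arrays). Ccn1 and Ccn2 had an r of 0.58 (rho 0.55, permutation p = 0.0027 and 0.0062, r = 0.61 without 2 arrays). The genes closest to Col1a1 by r over these arrays, of 12662 compared, were Arb2a (0.85), Col1a2 (0.85), Rtkn (0.85), Dchs1 (0.84) and Zdhhc2 (0.84). The residual of Col1a1 had an r of -0.53 with the share of probes well above background on the array, the lowest of the 32, and Fbln5 and Tgfb1 one of 0.44, the highest. Of the other genes in the pairs above, this r was -0.5 for Col1a2, -0.47 for Bgn and -0.32 for Col3a1. It was -0.26 for Ccn1, -0.1 for Col18a1, -0.05 for Dcn, 0.087 for Ccn2, 0.14 for Tgfb3 and 0.28 for Lum. The part of this share in the co-variation was not tested.

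**Figure D4:**
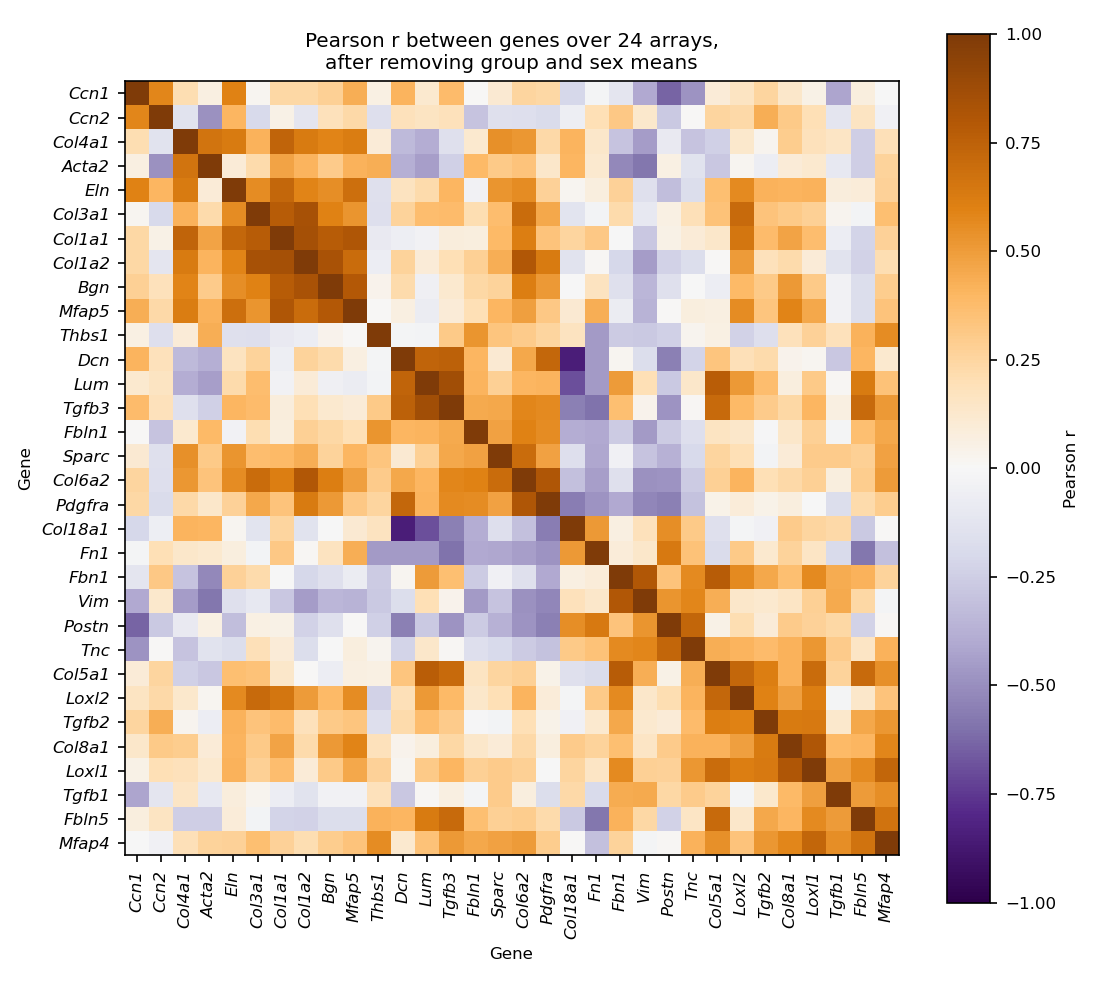
Pearson r between each pair of the 32 matrix genes over 24 arrays after group and sex means were removed, from purple (-1) to orange (1), with rows and columns in the order of average-linkage clustering. Col3a1, Col1a1, Col1a2, Bgn and Mfap5 form a block of positive values, and Col18a1 stands opposite to Dcn and Lum.

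Other genes of collagen making and of TGF-beta signalling were counted from fixed lists. Of 16 tested genes of collagen making and secretion, 0 were called for IRI against sham and 0 for Jiaji, Neiguan or Quchi against IRI. In these comparisons 3.44% to 10.2% of all genes were called. At an unadjusted limma p under 0.05 stood 1 or 2 of the 16 in each, against 17.8% to 23.5% of all genes. Yanglingquan against IRI had 1 higher, the lysyl hydroxylase Plod3 (0.31 ± 0.093 (SE), limma adjusted p = 0.0332), and 1 lower, the retention receptor Kdelr3 (-0.74 ± 0.2, limma adjusted p = 0.0167). Of all genes, 4.09% were called there as higher and 8.03% as lower. Against sham 1 of 16 was higher in Jiaji (17.5% of all genes), 1 in Neiguan (12.5%), 2 in Yanglingquan (5.81%) and 3 in Quchi (11.8%). In Yanglingquan 1 was lower (7.22% of all genes). The prolyl hydroxylase family gene P3h3 was higher than sham in all 4, by 0.38 in Jiaji, 0.34 in Neiguan, 0.5 in Yanglingquan and 0.64 in Quchi (limma adjusted p 0.021, 0.0419, 0.00736 and 0.000793). The comparisons with sham share the same 4 sham arrays.

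Of 17 tested genes of TGF-beta receptors and signalling, 1 was higher in IRI than in sham, where 4.73% of all genes were called as higher. This was Lrrc32, which encodes the surface anchor of latent TGF-beta (0.8 ± 0.23 (SE), limma adjusted p = 0.0445). Lrrc32 was also the 1 called gene of Jiaji against IRI (0.76 ± 0.23, limma adjusted p = 0.0394), where 8.39% of all genes were called as higher. In the other acupoint groups 0 of 17 were called against IRI, where 3.44% to 12.1% of all genes were. Against sham, 3 were higher and 2 lower in Jiaji, 2 and 0 in Neiguan, 1 and 1 in Yanglingquan and 2 and 1 in Quchi. Of all genes, 17.5% were higher and 6.55% lower in Jiaji, and 12.5% and 7.39% in Neiguan. The shares were 5.81% and 7.22% in Yanglingquan and 11.8% and 9.26% in Quchi. Lrrc32 was higher in Jiaji (1.56), Neiguan (1.41) and Quchi (1.34). The receptor Tgfbr2 was higher in Jiaji (0.6) and Neiguan (0.55), the receptor Tgfbr1 lower in Jiaji (-0.39) and Yanglingquan (-0.38), the latent TGF-beta anchor Nrros lower in Jiaji (-0.39), and the signal mediator Smad4 lower in Quchi (-0.83). Of 9 tested matrix receptors, 0 were called against IRI in any acupoint group, where 3.44% to 12.1% of all genes were. At an unadjusted limma p under 0.05 stood 0, 1 or 3 of the 9, against 19% to 26.3% of all genes. Sdc1 was lower than sham in Jiaji (-0.61) and Yanglingquan (-0.66), and Itgb1 in Neiguan (-0.53).

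Marker lists of the cells the tissue could hold moved beside these genes. The shares of all genes called in each comparison, given above for the matrix genes, apply to these lists too. The mean level of 11 tested fibroblast markers ran from 1.27 to 1.85 over the sham arrays, 1.04 to 1.85 in IRI, 1.05 to 1.41 in Jiaji, 0.95 to 1.68 in Neiguan, 1.01 to 1.41 in Yanglingquan and 1.19 to 1.68 in Quchi, and 6 of these 11 are matrix genes named above. Of the fibroblast markers outside the matrix genes, 0 were called in any comparison of groups, and Thy1 was not well above background in Yanglingquan. Of 7 tested activated fibroblast markers, Fap was lower in Neiguan than in IRI (-0.9) and in sham (-0.78), Cthrc1 lower in Yanglingquan than in sham (-1.14), and Comp higher than sham in Jiaji (0.67) and Quchi (0.68). The mean level of this list ran from -2.27 to -1.67 in sham, -2.4 to -1.63 in IRI, -2.78 to -2.26 in Jiaji, -3.01 to -1.92 in Neiguan, -2.9 to -2.49 in Yanglingquan and -2.57 to -1.95 in Quchi, so the Yanglingquan means lay below those of sham and IRI. The list holds 3 matrix genes named above, among them Tnc, which was not well above background in Yanglingquan, Jiaji or Quchi. The part of Tnc in these means was not tested.

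Beside the lower Col1a1 of Yanglingquan, 8 of 11 cardiomyocyte markers were higher than IRI and 7 of 11 higher than sham, and their mean level ran from 6.4 to 6.73 on the Yanglingquan arrays, 5.97 to 6.12 in IRI and 5.99 to 6.23 in sham. The ranges were 6.14 to 6.31 in Jiaji, 6.14 to 6.32 in Neiguan and 6.02 to 6.53 in Quchi. Beside the lower Col4a1 and Eln of Jiaji, 3 of 4 red cell genes (mean level 1.77 to 3.2, against 2.79 to 3.45 in IRI and 2.64 to 3.34 in sham) and 2 of 12 smooth muscle and pericyte genes, Lmod1 and Pdgfrb, were lower than IRI. The smooth muscle and pericyte mean ran from -0.062 to 0.29 in Jiaji and from 0.12 to 0.35 in IRI. Endothelial genes were called as lower or higher in at most 1 of 8 in each comparison of groups. Beside the higher Thbs1 and Ccn2, neutrophil markers were higher than sham in 4 of 6 in Jiaji, 5 of 6 in Neiguan, 2 of 6 in Yanglingquan and 4 of 6 in Quchi, with mean levels of -3.27 to -2.42 in sham, -2.34 to -1.62 in IRI, -2.13 to -1.33 in Jiaji, -2.25 to -1.19 in Neiguan, -2.34 to -1.6 in Yanglingquan and -2.29 to -1.32 in Quchi. Their part in the matrix values was not tested.

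Epicardial, atrial, fat and macrophage genes were called in some comparisons. Of 5 epicardial and mesothelial genes, 1 was higher in IRI than in sham (Msln, 1.31), and against sham 1 was higher in Jiaji, 2 in Neiguan, 1 in Yanglingquan and 1 in Quchi. Of 6 atrial genes, 2 were lower than sham in Jiaji, 1 in Neiguan and 2 in Yanglingquan, Myl7 in each (-1.8, -1.88 and -1.92). The mean atrial level ran from 0.27 to 0.62 in sham, -0.33 to 0.26 in IRI, -0.26 to 0.12 in Jiaji, -0.27 to 0.067 in Neiguan, -0.34 to 0.32 in Yanglingquan and -0.24 to 0.61 in Quchi. Of 3 fat genes, Lep was higher in Jiaji than in IRI (1.25) and was called as higher in Jiaji than in sham, where it was not well above background. Beside the lower Col1a1 of Yanglingquan, Lep was called as lower than in IRI and Adipoq as lower than in sham, and neither was well above background in Yanglingquan. Fabp4 was lower in Quchi than in sham (-0.56). Of 11 macrophage and monocyte genes, Csf1r was higher than IRI in Jiaji (0.99), Neiguan (0.78) and Quchi (0.68) and higher than sham in the same groups (0.65, 0.43 and 0.33), and Mrc1 was lower in Yanglingquan than in sham (-0.9). The rest of this list did not all follow Csf1r. Of the 11, 7 had a negative difference from IRI in Jiaji, 3 in Neiguan and 6 in Quchi, and 10, 5 and 8 had one from sham. Their part in the matrix values was not tested.

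The count of matrix genes called depended on how the arrays were scaled, most of all in Jiaji. Centring each array on its median moved the median of all genes in Jiaji against IRI from -0.015 to -0.23 and in Jiaji against sham from -0.086 to -0.36. It then called 10 of the 32 genes as lower against IRI, and 1 as higher and 19 as lower against sham, while the median of the 32 genes was -0.5 and -0.57. Quantile scaling called 4 as lower against IRI and 6 against sham, normexp 3 and 5, and the authors' processed values 5 and 8, with 0 higher in each. In Neiguan against sham the calls were 1 higher and 3 lower under quantile scaling, 1 and 6 under median scaling, 0 and 3 under normexp and 1 and 5 in the authors' values. In Yanglingquan against IRI, median scaling called 0 and the others 1, and in IRI against sham every scaling called 0 of the 32. The share of all genes called under each of these scalings is not given here. The counts therefore do not set the matrix genes apart from all genes.

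**Figure D5:**
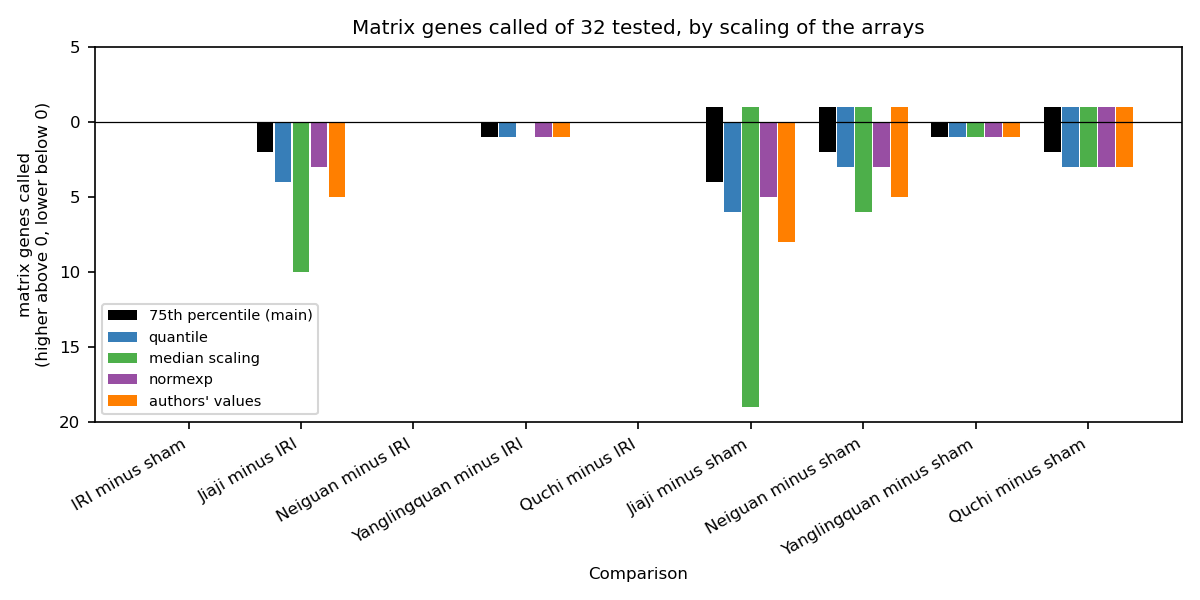
Number of matrix genes called of 32 (vertical axis, higher above 0 and lower below 0) in each of 9 comparisons (horizontal axis) under 5 ways of scaling the arrays (bar colours). The bars of Jiaji against sham reach from 4 lower under the 75th percentile to 19 lower under median scaling, and IRI against sham has no bar. Shares of all genes called under each scaling are not shown.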

How the data were processed

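Total RNA of 24 rat hearts was labelled with Cy3 and hybridised to Agilent arrays of 44254 spots. Per the file headers, the deposited intensity values are gProcessedSignal from Agilent Feature Extraction 11.0.1.1, already background-subtracted by the scanner software, while version 10.7.3.1 stands in the submitters' processing notes. The deposited flags (a 0 or 1 score per spot) mark spots well above background, outlier and saturated spots, per the file headers. The authors' processed table was deposited on a log2 scale, with a median of 7.2 in each column and an r of at least 0.997 with the log2 intensities of the same array, and was used as an alternative; how it was centred is not stated in the labels.

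After removal of 1377 control spots and of 8733 outlier spots over all arrays, log2 intensity was averaged per probe, and each array's 75th percentile was subtracted. Of 30367 probes, 18005 (59.3%) were named through RefSeq accessions. Probes were kept (25149) where 1 group or more had every array well above background. A gene took its kept probe of highest mean. limma 3.58.1 (R 4.3.3) fitted group and sex over 24 arrays, with 17 residual degrees of freedom and Benjamini-Hochberg adjustment over 12894 genes. The fit was tested on simulated data with independent noise for each gene and array. These data held no slide or scan-day effect, so that test does not bear on those limits. The number of arrays limits the precision.

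The genes, lists and tests were chosen with earlier results of these data known. Genes are described in full where they were called in a comparison of groups, together with 7 genes given whatever their values (Col1a1, Col3a1, Fn1, Postn, Ccn2, Tgfb1 and Acta2); Bgn and Loxl2 are added from the F test. The result of 1 gene of the TGF-beta list is not reported here.

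Same-numbered arrays of different groups were checked for pairing: the median r of their deviations over 60 pairs was 0.072 (-0.39 to 0.37), and 8 of 24 arrays were closest to their own number, so numbers were not taken as pairs. The alternatives were quantile and median scaling, normexp background correction (offset 50, on the median signal), the authors' values, no filter and a stricter filter, no sex term, the replicate number and the slide as blocks, the mean of all probes of a gene, and leaving out each array.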

Additional observations from a re-analysis of the deposited data

Results flagged for a closer look

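In 7 of 192 sets of 4 arrays (a gene in a group), 1 array stood apart from the other 3, with a gap to its neighbour above Dixon's 95% critical share of the range; chance marks about 1 in 20 sets. Col1a2 was high in Jiaji replicate 4, at 4.94 with the nearest array at 4.26. Dcn was low in Yanglingquan replicate 2 (3.15, nearest 3.39), and Fbn1 high in Neiguan replicate 2 (-0.084, nearest -0.95). Loxl1 was low in Jiaji replicate 2 (-3.2, nearest -2.34), the array without which its call against sham was lost. Ccn1 was high in Jiaji replicate 3 (5.1, nearest 4.02) and low in Yanglingquan replicate 1 (4.39, nearest 5.33). Pdgfra was low in Neiguan replicate 2 (0.77, nearest 1.66).

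The 4 acupoint groups differed from each other in 5 genes by limma's F test, with adjusted p = 0.0475 for Col1a1, 0.0267 for Bgn, 0.0231 for Eln, 0.0241 for Loxl2 and 0.0317 for Ccn2. This test called 39% of all genes, and each acupoint group was taken as a slide of its own.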

How the results depend on the processing

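Counts are of the 32 genes called. The share of all genes called in each alternative fit is not given here, so a change in count is not particular to the matrix genes. Jiaji against IRI (2 called) gave 4 with quantile scaling, 10 with median scaling, 5 with the authors' values, 1 without the sex term, 8 with the slide as a random block, 0 with the mean of probes, and 0 to 3 without single arrays. Jiaji against sham (5) gave 20 with median scaling, 8 with the authors' values, 3 without the sex term, 12 with the slide block, 2 with the mean of probes, and 0 (without sham replicate 3) to 7 without single arrays. Neiguan against IRI (0) gave 2 with the slide block and 0 to 1 without single arrays; against sham (3) it gave 7 with median scaling, 6 with the authors' values, 6 with the slide block, and 0 to 3 without single arrays. Yanglingquan against IRI (1) gave 0 with median scaling, 0 without the sex term, 6 with the slide block, 2 with the mean of probes and 0 to 2 without single arrays; against sham (1) it gave 0 without the sex term, 6 with the slide block, 0 with the mean of probes and 0 to 3 without single arrays. Quchi against IRI (0) gave 1 with the slide block and 1 with the mean of probes; against sham (3) it gave 7 with the slide block and 1 to 5 without single arrays. The F test (5) gave 16 with median scaling, 3 with normexp, 2 without the sex term, 12 with the slide block, and 0 to 7 without single arrays. The sex comparison (2) gave 1 with the replicate block and 2 to 4 without single arrays; the replicate block moved no other count by over 1.5 times. The slide block had an estimated correlation of -0.0998, so its counts are of a fit that narrows the errors between slides. IRI against sham gave 0 throughout. The cause of these changes was not tested. Under these alternatives no called gene changed direction, although second probes of Eln, Col1a1 and Col4a1 had the opposite sign in Jiaji against sham. Among called genes, Ccn2 in Quchi against sham kept its call in 34 of 34 alternatives and Col1a1 between sexes in 33 of 33, while Sparc kept it in 13 of 34 and Col4a1 against sham in 14 of 34. Slide and group cannot be told apart, and genes near background, such as Tnc, can be set only against an approximate floor.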
